A study of Arabidopsis thaliana with 4 samples.

Results

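The plastid-encoded genes for photosynthesis and for the NDH complex were examined in *Arabidopsis thaliana* seedlings after a short auxin treatment. The members were taken as the probe sets that the array's annotation and RefSeq assign to the plastid genome and whose symbols begin with psa, psb, pet, atp or ndh, or equal *rbcL*, *ccsA*, *ycf3* or *ycf4*. This gave 47 genes, each with 1 probe set, among 22746 probe sets tested, and every gene of RefSeq's plastid genome that meets the rule was measured. The rule itself uses no measured value. The seedlings were wild type of the Columbia accession (Col-0), grown in light and 5 days old. They spent 2 h in water alone (mock, 2 arrays) or in water that held the natural auxin IAA (indole-3-acetic acid) at 10 µM (2 arrays). All groups share this genotype and this immersion. RNA of whole seedlings was read on Affymetrix arrays, and each probe set has 1 RMA expression value (background-corrected, quantile-normalized intensity) per array, given here on a linear scale.

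The plastid genome keeps a small set of genes from the cyanobacterial ancestor of the chloroplast. Its photosynthesis genes encode core subunits of the thylakoid complexes, whose other subunits come from the nucleus, and the NDH complex carries electrons around photosystem I. Most of these genes lie in operons that are transcribed together by plastid RNA polymerases and then cut and trimmed into shorter RNAs, so that genes of 1 operon may end with different amounts of RNA. Here RNA per cell and the number of green cells cannot be told apart, since whole seedlings were used.

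After IAA the level of nearly every member was lower. The log2 change (IAA minus mock, a difference of mean log2 values) was below 0 in 46 of 47 genes, against 53.3% of all probe sets, and its median was -0.44, against -0.02 over all probe sets. Both IAA arrays lay below both mock arrays in 36 members, against 29.0% of all probe sets. A decrease was called in 5 members at a limma adjusted p below 0.10 with log odds B above 0, the rule of the study's methods, against 0.374% of all probe sets (1.86% in either direction). These 5 were *psbT*, *ndhA*, *petL*, *ndhC* and *psbZ*, and 0 members were called higher. At an unadjusted p below 0.05, limma gave 30 lower members, against 10.6% of all probe sets, and 0 higher ones. Without the rule on B, limma gave 16 lower members, against 2.26% of all probe sets, and a change of -0.5 or beyond was seen in 18 members, against 2.51%.

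The count of calls moved with the arrays used. With mock replicate 1 left out 0 members were called, and leaving out mock replicate 2 or IAA replicate 1 left 1 each (*psbT* and *ndhA*). The count rose to 7 when IAA replicate 2 was dropped, with 4 of the 5 kept. It was 0 with the replicate number as a block. A change below 0 was found in 38 members when mock replicate 1 was left out, in 41 when IAA replicate 1 was, and in 46 with either of the other arrays dropped.

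The members also moved together between replicates of 1 group. Mock replicate 1 was above mock replicate 2 in 41 of 47 members, and IAA replicate 1 was below IAA replicate 2 in 40. Over all probe sets these shares were 51.9% and 51.7%. The 47 values are thus not independent of each other. Relative to the mock mean, the median over members was 0.10 and -0.10 in the mock arrays and -0.49 and -0.35 in the IAA arrays, so the groups did not overlap.

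**Figure D1:**
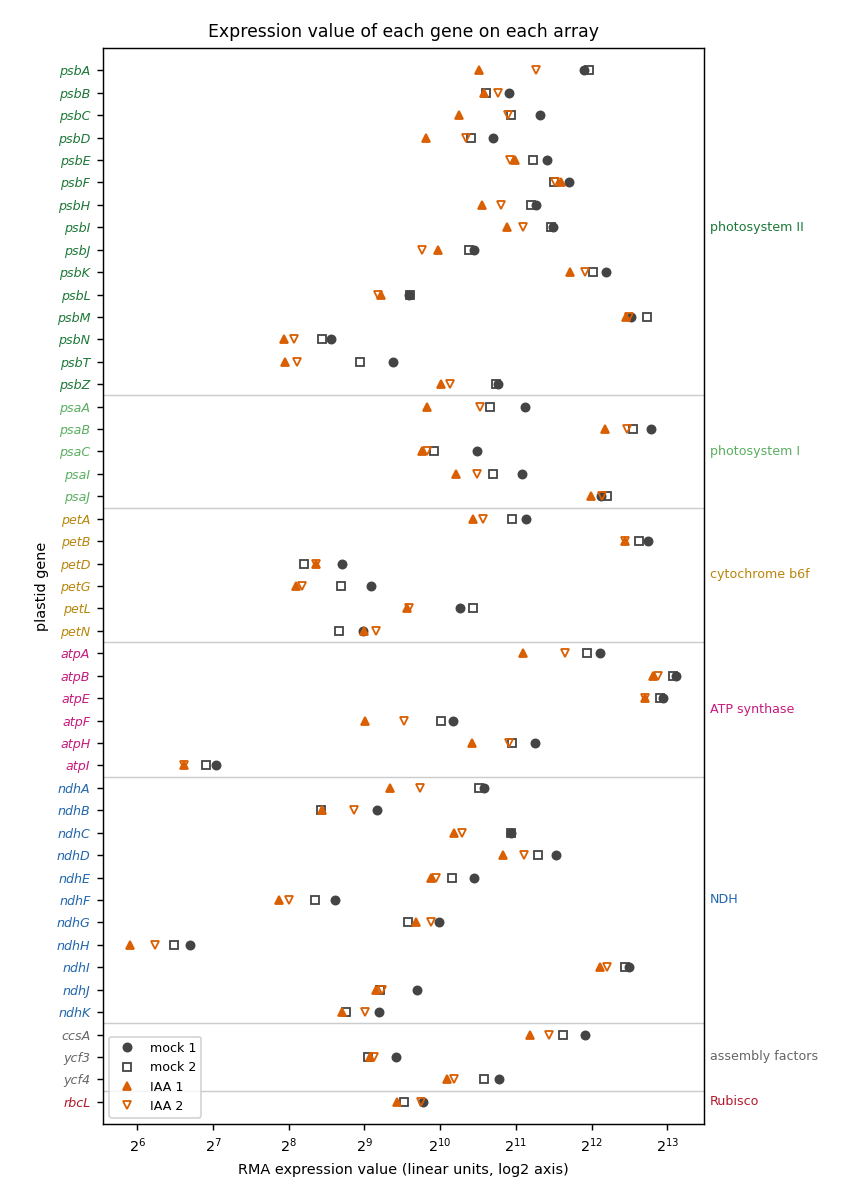
RMA expression value (linear units on a log2 axis) of each of the 47 plastid genes on each array, by complex, with mock arrays in dark gray and IAA arrays in orange. Both IAA values lie left of both mock values in 36 genes, *psbT*, *psbA* and *ndhA* among them, and right of both in *petN*.

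Photosystem II splits water and passes its electrons to plastoquinone. All 15 of its plastid genes had a change below 0, with a median of -0.49, and 2 were called. *psbT*, which encodes a small subunit near the dimer interface, read 664 and 491 in the mock arrays and 248 and 277 in the IAA arrays. Its decrease was 2.18-fold (log2 change -1.12 ± 0.16 SE, limma adjusted p = 0.033), and the lowest mock value stood well clear of the highest IAA value. *psbZ*, for a subunit at the contact with the light-harvesting antenna, read 1737 and 1706 in mock and 1028 and 1125 after IAA (log2 change -0.68 ± 0.09 SE, limma adjusted p = 0.0287). Its 2 mock arrays nearly coincided.

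*psbA* encodes D1, the reaction center protein that light damages and that is replaced most often. Its values were 3808 and 3983 in mock and 1456 and 2470.4 after IAA, a change of -1.04 ± 0.24 (SE) on the log2 scale with a limma adjusted p of 0.0985 and B below 0. The groups did not overlap, but the 2 IAA arrays lay far apart, and *psbA* was not called. Without IAA replicate 2 it was called, at -1.42. The other reaction center gene, *psbD* (D2, -0.48 ± 0.20 SE), and *psbC*, for the antenna protein CP43 (-0.56 ± 0.24 SE), had the same wide spread, and neither was called.

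Genes for small subunits of photosystem II showed both ends of the range. *psbH* (-0.56), *psbJ* (-0.54), *psbN* (-0.49), *psbI* (-0.49) and *psbL* (-0.40) had limma adjusted p values between 0.0697 and 0.0866 with B below 0. *psbN* encodes a factor needed to assemble the complex rather than a subunit of it. *psbE* (-0.37) and *psbK* (-0.30) also had groups that did not overlap, with larger adjusted p. *psbM* was at -0.15, and *psbF*, which with *psbE* encodes cytochrome b559, was at -0.05 ± 0.11 (SE). *psbB*, for the antenna protein CP47, read 1929.6 and 1554 in mock and 1524 and 1738 after IAA. Its arrays overlapped, and the 95% interval of its log2 change ran from -0.43 to 0.25.

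Photosystem I uses light to drive electrons from plastocyanin to ferredoxin. All 5 plastid genes had changes below 0, with a median of -0.40. By limma 0 were called, while 2 had an unadjusted p below 0.05, against 10.6% of all probe sets. *psaA* and *psaB* encode the related pair of core proteins that bind most of the pigments. *psaA* read 2232 and 1621 in mock and 911 and 1473 after IAA (log2 change -0.72 ± 0.26 SE), and *psaB* had a change of -0.34 ± 0.14 (SE). *psaI*, for a small subunit, was at -0.54 and *psaC*, for the protein that holds the terminal iron-sulfur clusters, at -0.40. In these 4 genes both IAA arrays were below both mock arrays, against 29.0% of all probe sets. *psaJ*, another small subunit, read 4452 and 4731 in mock and 4069 and 4509 after IAA, so that its arrays overlapped (-0.10 ± 0.10 SE).

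The cytochrome b6f complex links the photosystems and pumps protons. Among its 6 plastid genes 5 had a change below 0 and 1 was above 0, with a median of -0.39. *petL*, for a small stabilizing subunit, fell from 1223 and 1388 to 755 and 771, a 1.71-fold decrease (log2 change -0.77 ± 0.10 SE, limma adjusted p = 0.0246). *petG*, for another small subunit, had a change of nearly the same size (-0.76 ± 0.15 SE, limma adjusted p = 0.0662), but B was below 0. The 2 mock arrays of *petG* (545 and 415) were farther apart on the log2 scale than those of *petL*.

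The large subunits of the same complex gave smaller changes. *petA*, for cytochrome f, was at -0.54, *petB*, for cytochrome b6, at -0.25 and *petD*, for subunit IV, at -0.09 with overlapping arrays. *petN*, for a small subunit, was the single member above 0. It read 505 and 406 in mock and 510.0 and 569 after IAA, so that the groups did not overlap, as in 24.5% of all probe sets in this direction, yet the lowest IAA value was barely above the highest mock value. Its log2 change was 0.25 ± 0.14 (SE, limma adjusted p = 0.352), and its 95% interval ran from -0.09 to 0.59.

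The ATP synthase makes ATP from the proton gradient. All 6 of its plastid genes had both IAA arrays below both mock arrays, against 29.0% of all probe sets. By limma 5 had an unadjusted p below 0.05, against 10.6% of all probe sets, and 0 were called. The median change was -0.39. *atpF*, for a stalk subunit, read 1156 and 1028 in mock and 515 and 735 after IAA (-0.83 ± 0.18 SE, limma adjusted p = 0.0876, B below 0), and *atpA*, for the alpha subunit of the catalytic head, had a change of -0.65 ± 0.19 (SE). Both were called without IAA replicate 2. *atpH*, for the rotor ring, was at -0.44 and *atpI*, for the channel subunit, at -0.35. *atpB* (beta subunit, -0.25) and *atpE* (epsilon subunit, -0.22) had the smallest changes, with SE of 0.09 each.

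The NDH complex takes electrons from ferredoxin back to plastoquinone. All 11 plastid ndh genes had a change below 0, with a median of -0.39, and 2 were called. *ndhA*, for a membrane subunit, read 1524 and 1459 in mock and 647 and 852 after IAA, a 2.01-fold decrease (log2 change -1.01 ± 0.15 SE, limma adjusted p = 0.0332). *ndhC*, for another membrane subunit, read 1962 and 1963 in mock and 1159 and 1255 after IAA (-0.70 ± 0.09 SE, limma adjusted p = 0.0244). In both genes the mock arrays were close to each other and far above the IAA arrays.

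The remaining ndh genes were not called. *ndhF* (-0.54), *ndhH* (-0.52), *ndhD* (-0.44), *ndhE* (-0.39) and *ndhI* (-0.31) had groups that did not overlap. *ndhJ* (-0.25), *ndhB* (-0.15), *ndhK* (-0.12) and *ndhG* (-0.01) overlapped. For *ndhG*, with 1015 and 762 in mock and 818 and 938 after IAA, the 95% interval of the log2 change was -0.40 to 0.39. Its change was -0.21 without mock replicate 2 and 0.20 without mock replicate 1. *ndhB* lies in the inverted repeat, and its probe set reads both copies of the gene. Its mock arrays (573 and 345) were the farthest apart of any member relative to their mean, and its change had an SE of 0.26.

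*rbcL* encodes the large subunit of Rubisco, which fixes CO2. It read 876 and 736 in mock and 693 and 859.7 after IAA, and the arrays overlapped (-0.06 ± 0.15 SE, 95% interval -0.42 to 0.31). Of the genes for assembly, *ycf4* (photosystem I assembly) had a change of -0.54, *ccsA* (heme attachment to cytochromes of the c type) of -0.46 and *ycf3* (photosystem I assembly) of -0.13. The first 2 had groups that did not overlap and an unadjusted p below 0.05, and 0 of the 3 were called by limma.

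**Figure D2:**
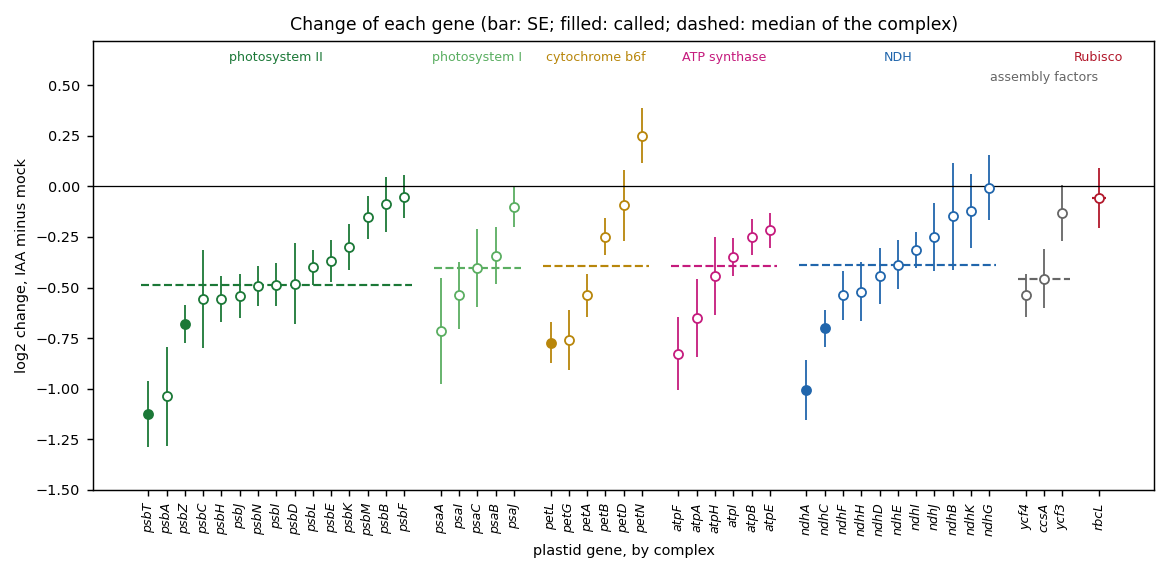
log2 change (IAA minus mock) of each plastid gene, ordered within its complex, with bars for the SE of the limma fit, filled points for called genes and a dashed line for the median of each complex. The medians lie between -0.49 and -0.39, apart from the single Rubisco gene *rbcL* at -0.06, and single genes range from -1.12 (*psbT*) to 0.25 (*petN*).

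The complexes were next compared with each other, with the assembly genes as a group and the single Rubisco gene left out. Their medians lay between -0.49 (photosystem II) and -0.39 (NDH), a range of 0.10. Since replicate arrays shift all complexes together, the per-array medians were subtracted within each array for the 15 pairs of complexes. The mock and IAA arrays did not overlap in 5 pairs. The largest difference was between photosystem II and NDH, at -0.12 ± 0.07 (SE over arrays), with -0.07 and 0.07 in mock and -0.14 and -0.10 after IAA. An exact permutation test of 2 arrays against 2 has a smallest two-sided p of 0.333, which every pair without overlap reaches. If mock and IAA arrays were alike, a share of 0.333 of pairs would still not overlap. The count of 5 is therefore no sign of a difference between complexes. Within photosystem II the changes ran from -1.12 to -0.05, within the NDH genes from -1.01 to -0.01 and within cytochrome b6f from -0.77 to 0.25. The median of photosystem I was -0.69 without mock replicate 2 and -0.22 without mock replicate 1.

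Gene order was examined in 11 operons that hold 2 or more members, 38 members in all, with genes listed in the order of transcription. The operons were taken from general knowledge of the plastid genome. The last member had a smaller decrease than the first in 5 of 11 operons, and without IAA replicate 2 this count was 8. With 16 added before the log it was 4, as *ndhH* (-0.433) and *ndhD* (-0.439) then stood in the other order. Last and first were nearly equal in the psaI and psbB operons (differences of -0.001 and -0.005). In the remaining operons the last member had the larger decrease, so the operons did not all share 1 direction. In 7 operons the difference between last and first did not overlap between mock and IAA arrays. Among these the last member was less lowered in the psaA, atpB, ndhC, ndhH and petL operons, by 0.03 in atpB and 0.08 in ndhH. It was more lowered in the psbE and psbK operons. The same limit of the exact test holds for these differences, since a share of 0.333 would not overlap even if mock and IAA arrays were alike. The operons share arrays and are no replicates, and the spread over arrays is given beside several of those described. The largest range of log2 change within an operon was 1.03, against 1.37 over all members.

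That widest range was in the psbB operon, *psbB*, *psbT*, *psbH*, *petB* and *petD*. Along it the log2 changes were -0.09, -1.12, -0.56, -0.25 and -0.09, lowest in the second gene and closer to 0 with each later one. Relative to *psbT*, the log2 level of *psbB* was 1.02 and 1.05 higher in the IAA arrays than in the mean of mock, with mock arrays at -0.06 and 0.06 of that mean. The same neighbors were thus far apart on both IAA arrays. *psbN*, which lies between *psbT* and *psbH* on the other strand, had a change of -0.49.

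The ndhH operon also had a range of 1.00. Its members *ndhH*, *ndhA*, *ndhI*, *ndhG*, *ndhE*, *psaC* and *ndhD* had changes of -0.52, -1.01, -0.31, -0.01, -0.39, -0.40 and -0.44. The second gene was again the lowest. Relative to *ndhG*, the log2 level of *ndhA* was at -1.10 and -0.90 in the IAA arrays and at -0.18 and 0.18 in mock, as differences from the mock mean. The last 3 genes, a photosystem I gene among them, had nearly equal changes.

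In the petL operon, *petL* (-0.77) and *petG* (-0.76) had like changes and *psaJ*, the third gene, was at -0.10. The change of *petL* differed from that of *psaJ* by -0.67 ± 0.08 (SE over arrays), with -0.61 and -0.73 in the IAA arrays. The ribosomal protein genes *rpl33* and *rps18*, which follow *psaJ* and are no members, were at -0.66 and -0.68. *psaJ* thus stood apart from genes on both sides of it. In the ndhC operon the called *ndhC* (-0.70) was followed by *ndhK* (-0.12) and *ndhJ* (-0.25). The change of *ndhC* differed from that of *ndhK* by -0.58 ± 0.24 and from that of *ndhJ* by -0.45 ± 0.24 (SE over arrays). In each of these pairs the arrays of the groups did not overlap.

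The members of some other operons changed more evenly. In the psaI operon *psaI*, *ycf4* and *petA* had changes of -0.54 each, although they belong to 3 different complexes or functions, and *cemA*, which lies between *ycf4* and *petA* and is no member, was at -0.64. *accD*, the gene before *psaI*, was at -0.16. The difference between the changes of *psaI* and *petA* was 0.001 ± 0.12 (SE over arrays). *atpB* (-0.25) and *atpE* (-0.22), whose coding regions overlap in RefSeq, were also alike. In the psbD operon *psbD*, *psbC* and *psbZ* were at -0.48, -0.56 and -0.68, with *psbD* and *psbC* overlapping in the same way. The change of *psbD* differed from that of *psbZ* by 0.20 ± 0.24 (SE over arrays), and the arrays of the groups overlapped. The psaA operon was less even, with *psaA* at -0.72 and *psaB* at -0.34, and the related sequences of this pair may share signal. Their difference was -0.37 ± 0.23 (SE over arrays), with -0.57 and -0.17 in the IAA arrays.

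The psbE operon gave -0.37, -0.05, -0.40 and -0.54 for *psbE*, *psbF*, *psbL* and *psbJ*. Here the second gene was the nearest to 0, and the change of *psbE* differed from that of *psbF* by -0.32 in each IAA array. In the atpI operon *atpI*, *atpH*, *atpF* and *atpA* were at -0.35, -0.44, -0.83 and -0.65, where the difference between *atpA* and *atpI* was -0.58 in IAA replicate 1 and -0.02 in IAA replicate 2. The psbK operon had -0.30 for *psbK* and -0.49 for *psbI*, a difference of 0.19 ± 0.07 (SE over arrays).

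**Figure D3:**
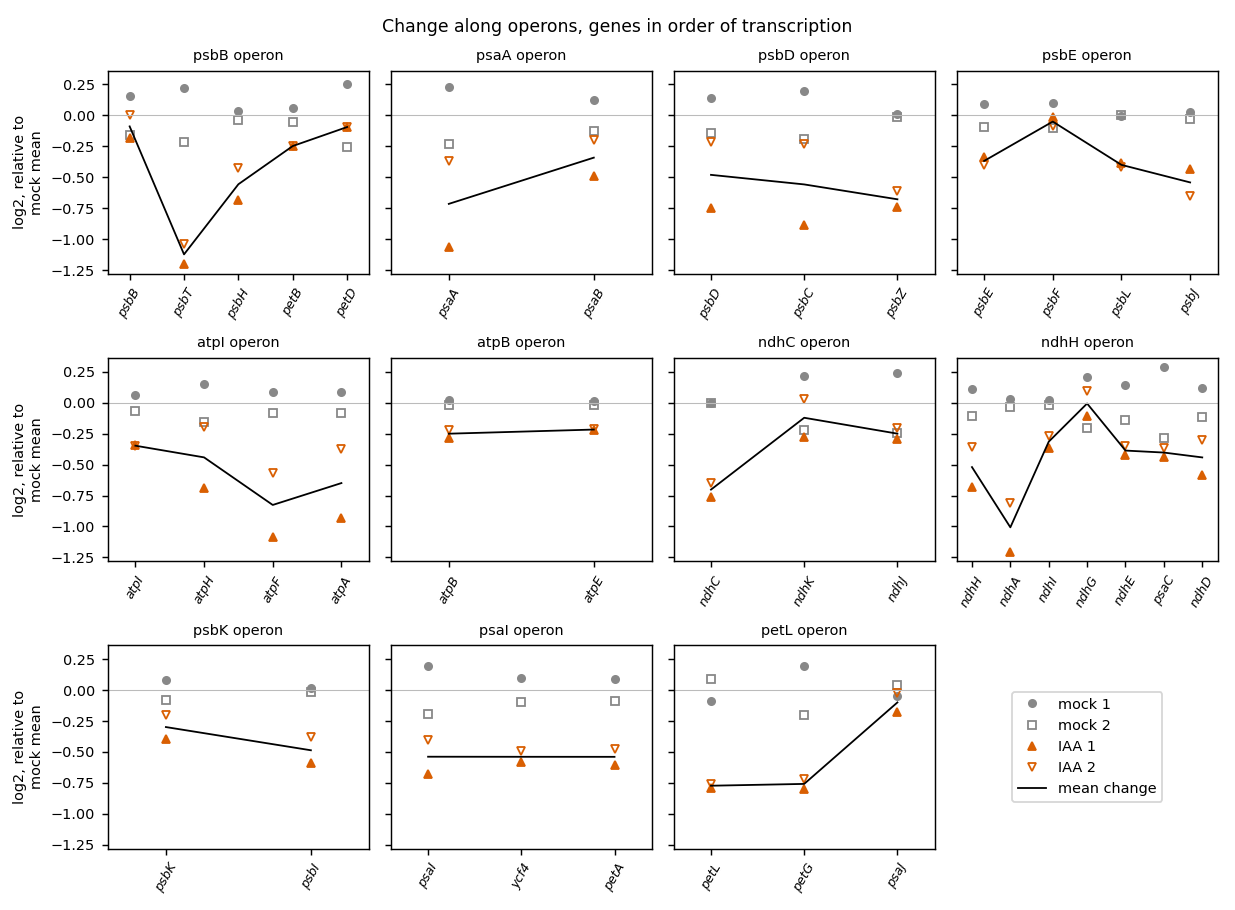
log2 value of each member relative to its mock mean, on each array, along 11 operons with genes in the order of transcription, and the mean change as a black line. The line dips at the second gene of the psbB and ndhH operons, rises at *psaJ* in the petL operon and is flat at -0.54 in the psaI operon.

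The members were set beside other genes of the same compartment or complexes. The 30 other plastid probe sets, mostly for ribosomal proteins, had a median change of -0.53, with 28 below 0. Of these 4 were called lower (*rps3*, *rpl22*, *rps19* and *matK*), against 0.374% of all probe sets. Lower levels after IAA were thus also measured in plastid genes outside photosynthesis. Of 72 nuclear genes on lists of photosystem, antenna, cytochrome b6f, ATP synthase, Rubisco and NDH subunits, 13 had a named probe set. Their median was -0.10, with a range from -0.26 to 0.04. By limma 0 were called in either direction, with 0 at an unadjusted p below 0.05. A change below 0 was found in 10 of the 13, against 53.3% of all probe sets. In 6 of the 13 both IAA arrays lay below both mock arrays, against 29.0% of all probe sets. These nuclear genes were brighter, with a median mock level of 6710 against 1722 for the members. The brightest members, *atpB*, *atpE* and *petB*, had changes of -0.25, -0.22 and -0.25. The part of signal level in this contrast was not tested.

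Nuclear and plastid subunits of the same complex can be read side by side. *ATPC1*, for the gamma subunit of the ATP synthase, read 6743 and 6948 in mock and 6559.6 and 6621 after IAA (-0.05 ± 0.09 SE), while the 6 plastid atp genes were between -0.83 and -0.22. The nuclear NDH genes *NDHL*, *NDHN* and *NDHS* were at -0.21, -0.10 and -0.12. *PSAE1* and *PSAN* of photosystem I were at -0.10 and 0.04. The gene for Rubisco activase, *RCA*, was at -0.01, and no small subunit gene of Rubisco had a named probe set.

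Among nuclear genes for plastid transcription and RNA processing, 1 of 33 had a named probe set. This was *RPOTMP*, for a phage-type RNA polymerase, at -0.36 ± 0.13 (SE, limma adjusted p = 0.219). Of 8 genes for chlorophyll synthesis and light response, *PORB*, for an enzyme of chlorophyll synthesis, was measured, with 757 and 796 in mock and 587 and 519 after IAA (-0.49 ± 0.10 SE, limma adjusted p = 0.0775, B below 0). It was not called.

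**Figure D4:**
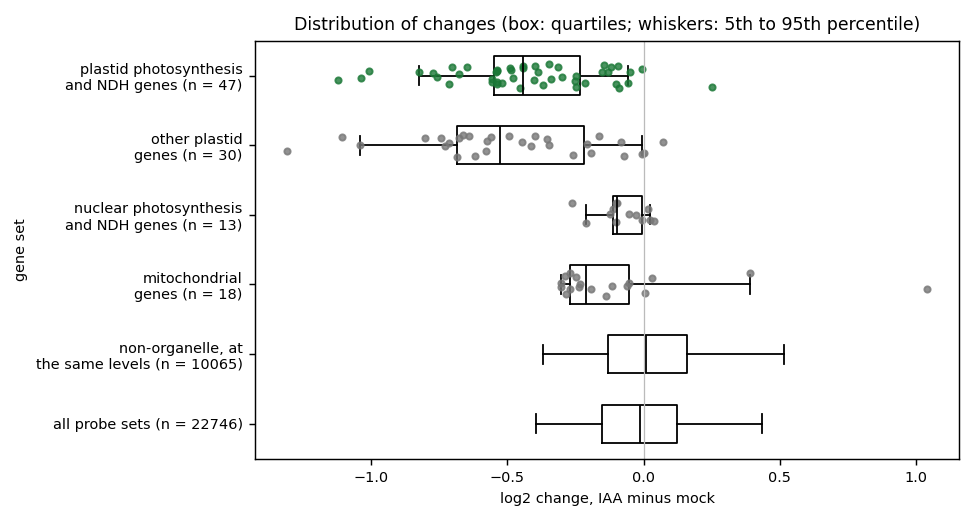
log2 change (IAA minus mock) in 6 sets of probe sets, with boxes for the quartiles, whiskers from the 5th to the 95th percentile and points for single genes in sets under 200. The 47 members center on -0.44 and the 30 other plastid probe sets on -0.53, while the 13 nuclear photosynthesis and NDH genes center on -0.10 and all probe sets on -0.02.

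Several properties of the arrays were measured beside this shift. The array medians were 62.2 to 63.5. Non-organelle probe sets with mean levels between the quartiles of the members' (1654 probe sets) had a median change of -0.02, and across the 47 members the change had almost no relation to mean level (Pearson r = 0.09, Spearman rho = 0.09, across genes that share arrays and are no replicates). Of the hybridization controls, bacterial and phage RNAs that the array protocol adds after labeling, all 8 probe sets for bioD and cre were lower on both IAA arrays than on both mock arrays, with log2 changes from -0.37 to -0.16. The 10 probe sets for bioB and bioC ranged from -0.07 to 0.17. In mock replicate 1 these 10 read 61.1 to 276, and those for bioD and cre read 142 to 5276. The members' median mock level was 1722, and the median change of bioD and cre was -0.25. The part of these control changes in the members' result was not tested beyond other scalings, all added after the values were seen. None of them used bioD and cre alone. With arrays centered on the median change of all 18 of these controls, the members' median was -0.37, 43 of 47 changes were below 0, and 3 genes were called (*ndhA*, *ndhC* and *petL*). *psbT* (-1.06) and *psbZ* (-0.61) then had B below 0. With arrays centered on the median level of these controls instead, the members' median was -0.49 and the 5 genes of the main fit were called. With a level-dependent (cyclic loess) correction on non-organelle probe sets, which uses none of these controls, the median was -0.41, with the same 5 called.

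**Figure D5:**
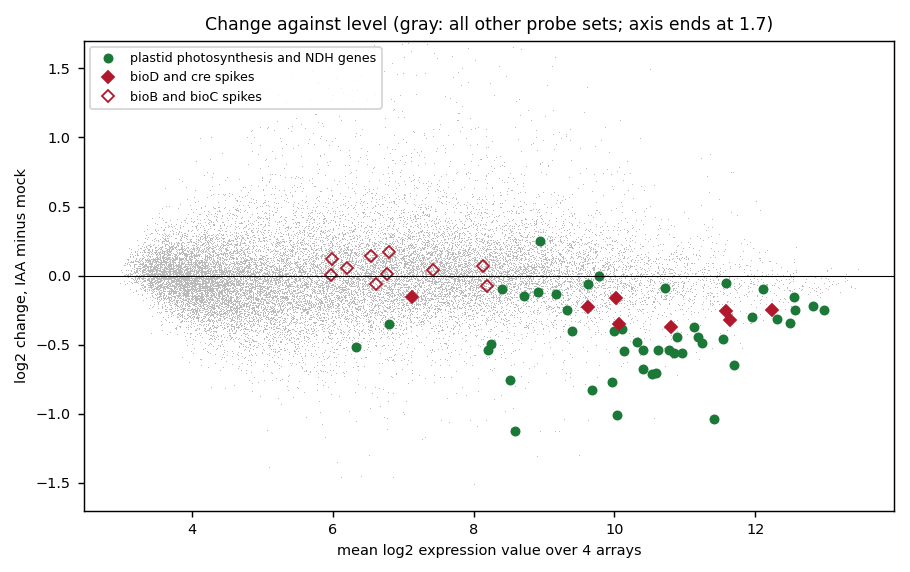
log2 change (IAA minus mock) against mean log2 expression value over the 4 arrays, for the 47 plastid genes (green), the hybridization controls (red) and all other probe sets (gray, with changes over 1.7 outside the axis). The bioD and cre controls lie from -0.37 to -0.16, the bioB and bioC controls from -0.07 to 0.17, and the plastid genes show no trend with level.

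Tissue markers and RNA quality were read in the same way. Of the root markers 1 of 5 had a named probe set, and of the shoot meristem and epidermis markers 0 of 3 had one. The root marker, *PYK10*, read 2407 and 2943 in mock and 2707 and 2325 after IAA (-0.09 ± 0.14 SE). Both measured root hair markers, *EXPA7* (-0.40) and *EXPA18* (-0.23), were below 0 and not called. *RCA*, a gene of green tissue, read 9667.5 to 9993.9, so green and root tissue were both represented. Ratios of signal at the 3′ end to the 5′ end overlapped between groups for the actin and ubiquitin controls. For GAPDH they did not, at 1.55 and 1.56 in mock and 1.60 and 1.69 after IAA for 1 pair of probe sets, and at 0.836 and 0.83 against 0.769 and 0.793 for the other. The probe set for 25S ribosomal RNA read 41.0 and 33.3 in mock and 14.4 and 20.1 after IAA, near or below the highest value of 37.6 among controls for genes of *Bacillus*. The part of tissue makeup and RNA quality in the result was not tested.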

How the data were processed

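The deposited values are linear expression intensity values, which the authors computed with rma of the Bioconductor affy package (background correction, quantile normalization, probe-set summary). Its version, the set of arrays normalized together and the labeling primer are not given in the sources used here. Plastid RNAs mostly lack the stable poly(A) tails of nuclear mRNAs, and what share of them was labeled was not tested. The study describes its replicates as biologically independent. Quantile normalization hides a change shared by most transcripts.

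After 64 controls were left out, the log2 of each value (nothing added) was fitted for 22746 probe sets in R 4.3.3 with limma 3.58.1 (lmFit, eBayes), and treatment was the single factor. P-values were adjusted by the Benjamini-Hochberg method over all of them, and the prior had 3.66 degrees of freedom. Groups came from the sample descriptions. Genes were named through the platform table and RefSeq (TAIR10.1), and 8730 probe sets not listed there stayed unnamed. Mitochondrial genes were matched by symbol. The fit was tested on simulated data. Alternatives were added constants, a filter on dim probe sets, other normalizations, a replicate block, arrays left out, a variance trend and other call rules. The members, lists and operons were chosen with earlier results of these data known. The text names called members, the extremes of each complex, *psbA*, *rbcL*, the brightest and dimmest members and members of operons, while pairs within operons, neighboring plastid genes and uncalled genes of the other lists were picked after their values were seen. No genome or sequence table was used, so no sequences or coordinates are given.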

Additional observations from a re-analysis of the deposited data

How the results depend on the processing

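The median of the members kept its direction under all alternatives, from -0.55 to -0.31. Decreases over all probe sets numbered 85 and increases 337. Dropping the rule on B gave 513 and 880 (16 members), and lowering the adjusted p to 0.05 as well gave 155 decreases. Centering on the hybridization controls was added after the values were seen. Centered on their median change, 59 decreases and 3 members passed, and *ndhG* (0.0615), *psbF* (0.0174) and *rbcL* (0.0109) turned direction. Centered on their median level, which the bioC controls set, 137 decreases passed. The same 5 members were called with the dimmer probe sets left out, quantile normalization repeated, arrays centered on non-organelle probe sets, a variance trend, and cyclic loess (added later). Adding 16 before the log left 3 called members (*ndhC*, *petL* and *psbZ*).

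With the replicate number as a block (replicate block) 10 decreases and 145 increases passed, and 0 members. The sample descriptions do not say whether the titles' numbers pair the samples. Deviations of replicate 1 from the group means correlated at -0.19 between mock and IAA across probe sets, which with 2 arrays per group cannot settle it. A crossed block (added later) gave 86 decreases, 299 increases and 2 members.

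Leaving out 1 array at a time gave 20 to 162 decreases, 158 to 397 increases and 0 to 7 called members. The members' median was -0.55 to -0.31, that of photosystem I -0.69 to -0.22 and that of the NDH genes -0.53 to -0.29, and 5 to 8 operons had a last member with the smaller decrease. Genes near 0 turned direction in these fits, with ranges of -0.51 to 0.22 for *ndhB*, -0.21 to 0.20 for *ndhG*, -0.34 to 0.10 for *ndhK*, -0.35 to 0.16 for *petD*, -0.25 to 0.0669 for *psbB*, -0.15 to 0.0495 for *psbF*, -0.21 to 0.10 for *rbcL* and -0.31 to 0.0519 for *ycf3*. The cause was not tested. With 2 arrays per group, their number limits the precision.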

Other observations

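The other organelle genome was measured less well. Of 18 probe sets named for mitochondrial genes, 14 had a change below 0, and their median was -0.21. Most read near background, so these changes are no basis for a comparison of the organelles. The exception that was called, a probe set for *nad2* (a subunit of respiratory complex I), had a log2 change of 1.04 (limma adjusted p = 0.0111) and a mean of 41.3 after IAA, against a highest value of 37.6 among the controls for *Bacillus* genes.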
